A study of Mus musculus with 4 samples.

Results

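The genes described here are those of glycolysis and of the response to low oxygen, in RNA-seq libraries labelled as liver of mice given conjugated linoleic acid (CLA) and the PPARα antagonist GW6471. They were chosen by name, with the FPKM of these same libraries already known, so their values are a description and no test is given. The list holds 38 symbols for 37 genes, since Pkm2 is the older symbol of Pkm, and all 37 were found among the 15500 genes of the deposited table. Of these, 33 had a mean of at least 1 FPKM, a level scaled to transcript length, over the 4 libraries.

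There was 1 library for each of 4 conditions, and 6 mice per group according to the labels. The sources used here do not say whether a library holds RNA of 1 mouse or of several. All mice were wild-type males of the Kunming strain, 5 weeks old at purchase and acclimated for 1 week, and livers were taken at zeitgeber time 8 h after 28 days of treatment. Mice of the Vehicle group ate chow supplemented with 1.5% (w/w) linoleic acid and had vehicle injections where these applied, and the CLA group ate chow with 1.5% CLA. The GW6471 group ate the linoleic acid diet and was injected i.p. every day with 20 mg/kg of GW6471. The CLA+GW6471 group had both treatments, the CLA diet and GW6471 injections. No treatment deletes or adds a gene, so the treatment labels could not be checked against the data, and every ratio below rests on them.

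The tissue label was checked against marker genes, and most hepatocyte markers went against it. Of 16 hepatocyte markers 14 were listed and 10 of these had a mean under 1 FPKM (the fragment count scaled to transcript length and to library size). Ttr, Cps1 and Cyp2e1, which are abundant in hepatocytes, had at most 0.04, 0.03 and 0.10 FPKM in any library, whereas Alb had 620.17 to 1321.55. Markers of other cell types were mixed as well. Among 9 epithelial markers 6 had a mean of at least 1 FPKM, led by Krt18, which hepatocytes also express, and among 7 listed markers of stellate cells and fibroblasts only Dcn did. The liver label of these libraries is in doubt for the missing hepatocyte transcripts, and they are called by their treatment below.

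Glycolysis splits glucose into pyruvate. In a preparatory phase glucose is taken up, phosphorylated and cleaved, and in a payoff phase the fragments are oxidised and ATP is made, after which lactate dehydrogenase can turn pyruvate into lactate. When oxygen is scarce, prolyl hydroxylases no longer mark the HIF-α subunits for destruction by the VHL ubiquitin ligase, and HIF raises the transcription of most glycolytic genes together with genes of mitophagy, collagen hydroxylation and vessel growth. HIF dimers bind a core of the letters ACGTG or GCGTG, the hypoxia response element. HIF is controlled mainly at the protein level, which these data do not measure. In normal liver hepatocyte isozymes such as glucokinase and L-type pyruvate kinase carry much of the flux, and the pathway also runs backwards to make glucose.

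Promoter sequence is shown for genes higher in CLA than in Vehicle with these letters (Bnip3, Ankrd37, Egln3, P4ha1) and without them (Gpi1), and for genes lower in CLA with them (Pfkfb3) and without them (Eno2), chosen after the matches were seen. Each sequence is the 250 bases before a RefSeq transcription start, written 5′ to 3′ on the gene's strand and placed in mm9 by its single exact match to that genome. Capitals mark ACGTG or GCGTG read on either strand.
Bnip3, chr7:146101190-146101439, minus strand: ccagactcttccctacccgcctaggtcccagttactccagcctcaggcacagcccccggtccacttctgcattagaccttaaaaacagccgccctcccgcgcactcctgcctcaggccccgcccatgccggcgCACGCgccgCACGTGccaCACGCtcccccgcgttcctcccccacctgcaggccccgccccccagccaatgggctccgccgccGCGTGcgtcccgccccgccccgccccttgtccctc
Ankrd37, chr8:47085205-47085454, minus strand: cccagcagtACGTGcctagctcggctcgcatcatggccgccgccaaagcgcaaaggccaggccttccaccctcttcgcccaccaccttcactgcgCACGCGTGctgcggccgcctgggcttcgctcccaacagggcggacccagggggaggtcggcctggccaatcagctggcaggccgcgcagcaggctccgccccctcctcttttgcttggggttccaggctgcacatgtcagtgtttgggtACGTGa
Egln3, chr12:55304862-55305111, minus strand: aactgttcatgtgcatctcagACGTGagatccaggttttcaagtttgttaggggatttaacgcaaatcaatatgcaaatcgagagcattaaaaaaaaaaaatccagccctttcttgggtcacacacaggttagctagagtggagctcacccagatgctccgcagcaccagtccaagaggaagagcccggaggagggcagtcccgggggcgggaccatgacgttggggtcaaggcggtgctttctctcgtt
P4ha1, chr10:58785794-58786043, plus strand: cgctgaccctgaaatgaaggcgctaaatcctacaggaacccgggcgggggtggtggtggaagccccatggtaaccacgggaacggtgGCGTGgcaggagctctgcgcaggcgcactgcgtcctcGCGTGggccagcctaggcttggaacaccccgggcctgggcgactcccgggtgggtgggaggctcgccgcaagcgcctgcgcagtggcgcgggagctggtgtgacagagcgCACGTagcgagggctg
Gpi1, chr7:35015356-35015605, minus strand: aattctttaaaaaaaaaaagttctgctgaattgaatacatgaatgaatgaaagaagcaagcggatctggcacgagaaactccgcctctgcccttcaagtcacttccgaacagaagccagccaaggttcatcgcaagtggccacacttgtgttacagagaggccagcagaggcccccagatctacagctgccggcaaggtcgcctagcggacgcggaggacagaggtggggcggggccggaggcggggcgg
Pfkfb3, chr2:11423718-11423967, minus strand: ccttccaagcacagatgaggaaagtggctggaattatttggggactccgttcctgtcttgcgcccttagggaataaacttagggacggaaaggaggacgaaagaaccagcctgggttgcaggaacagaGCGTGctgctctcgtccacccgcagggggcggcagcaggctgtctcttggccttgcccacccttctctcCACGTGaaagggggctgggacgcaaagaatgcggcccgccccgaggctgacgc
Eno2, chr6:124719692-124719941, minus strand: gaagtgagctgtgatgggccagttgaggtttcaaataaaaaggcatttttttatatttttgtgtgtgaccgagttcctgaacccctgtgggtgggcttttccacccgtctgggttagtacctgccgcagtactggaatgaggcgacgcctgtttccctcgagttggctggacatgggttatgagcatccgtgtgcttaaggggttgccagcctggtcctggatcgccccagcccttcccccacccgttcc
Bnip3 held 5 matches in this stretch, of which the pair 108 and 107 bases before the start is a single CACGTG read on both strands. Pfkfb3 held such a CACGTG too. That palindrome is also the E-box, the element of CLOCK-BMAL1. Ankrd37 held 4 matches, P4ha1 and Pfkfb3 held 3 each and Egln3 held 1, and the stretches of Gpi1 and Eno2 held none of these letters. A match was thus found on both sides of the comparison of CLA with Vehicle.

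RefSeq windows running from 250 bases before to 50 after a start (build GRCm38.p6) were found for 34 of the 37 genes, with 51 windows in all. Among these windows 78.4% held ACGTG or GCGTG on either strand, against 63.2% of the 10794 windows of all genes with a mean of at least 1 FPKM and 43.8% of all 32851 windows. The 2 cores differed in this respect. ACGTG alone was found in 56.9% of the windows of these genes and in 26.2% of those of genes with at least 1 FPKM, whereas GCGTG was found in 54.9% and 51.7%. The E-box CACGTG, which contains ACGTG, was present in 9.80% and 10.3% of these windows. Of the 22 windows of genes called higher in CLA against Vehicle, 77.3% held either core and 59.1% held ACGTG, close to the shares of the whole list. Several genes have more than 1 window, some of them overlapping, and a match of letters does not show that a factor binds there.

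Levels of these genes are given in FPKM, which is scaled to transcript length and so allows genes to be compared. Differences are log2 ratios of FPKM + 0.1, with a gene called higher or lower from 1.5-fold. Behind each ratio stands a 95% counting interval computed from an estimated 18825000 to 19200000 reads per library, which covers counting error only and not the difference between mice. Since every condition has a single library, no replicate error and no p-value can be given.

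In the CLA library most of these genes were higher than in Vehicle. Of the 33 genes, 15 were called higher (45.5%), against 7.33% of the 10355 genes with a mean of at least 1 FPKM, and 2 were called lower (6.06%, against 4.95%). The median log2 ratio of the genes was 0.55, beside -0.0071 over all genes, and 30 of the 33 were above 0. Against the same Vehicle library, the GW6471 library had 14 of the genes called higher (42.4%, against 3.29% of all genes) and 0 called lower (against 2.1%), with a median of 0.35. These comparisons share the Vehicle library, so their values are given side by side only. In bulk tissue, more cells of a type and more RNA per cell cannot be told apart.

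Against either single treatment, most called genes were lower in CLA+GW6471. In CLA+GW6471 against CLA, 16 genes were called lower (48.5%, against 9.16% of all genes) and 2 higher (6.06%, against 6.84%), with a median log2 ratio of -0.58. In CLA+GW6471 against GW6471, 14 were called lower (42.4%, against 3.88%) and 1 higher (3.03%, against 2.81%), and the median was -0.41. Between the CLA+GW6471 and Vehicle libraries 0 of the 33 genes differed by 1.5-fold, near the 1.14% of all genes that did so. The log2 ratios of the genes between these libraries ran from -0.52 to 0.23.

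At a limit of 2-fold, 7 of the 33 genes were higher in CLA against Vehicle (21.2%, against 1.79% of all genes) and 0 lower (against 0.744%). In GW6471 against Vehicle 3 were higher (9.09%, against 0.56%) and 0 lower (against 0.309%). With CLA as the base, 8 were lower in CLA+GW6471 (24.2%, against 2.67%) and 1 higher (3.03%, against 1.27%). With GW6471 as the base, 3 were lower in CLA+GW6471 (9.09%, against 0.802%) and 0 higher (against 0.357%).

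**Figure D1:**
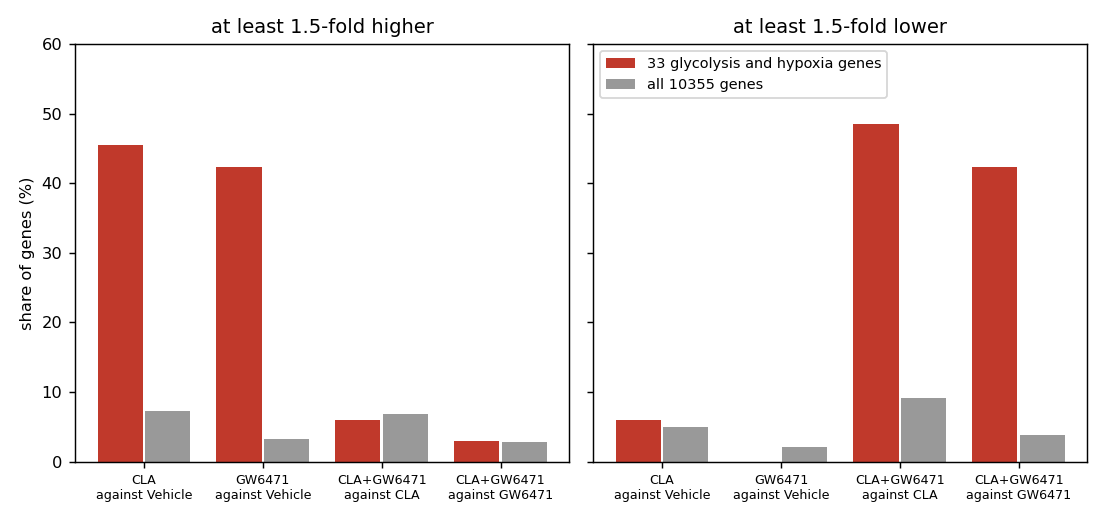
Share of genes, in percent, at least 1.5-fold higher (left) or lower (right) in each of the 4 comparisons, for the 33 glycolysis and hypoxia-response genes (red) and for all 10355 genes with a mean of at least 1 FPKM (grey). Red bars reach 45.5% for genes higher in CLA against Vehicle, where grey stands at 7.33%, and 48.5% for genes lower in CLA+GW6471 against CLA, where grey stands at 9.16%.

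The order of the 4 libraries was alike for most of the genes. CLA had the highest value for 27 of the 33 genes (81.8%, against 34.7% of all genes), with GW6471 second for 24 of them (72.7%, against 22.1%). The lowest value was that of CLA+GW6471 for 19 genes and of Vehicle for 9. CLA and GW6471 both lay above the other 2 libraries for 27 genes (81.8%, against 30.2%), and both lay below them for 3 (9.09%, against 31.8%), which were Eno2, Pfkfb3 and Ndrg1.

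**Figure D2:**
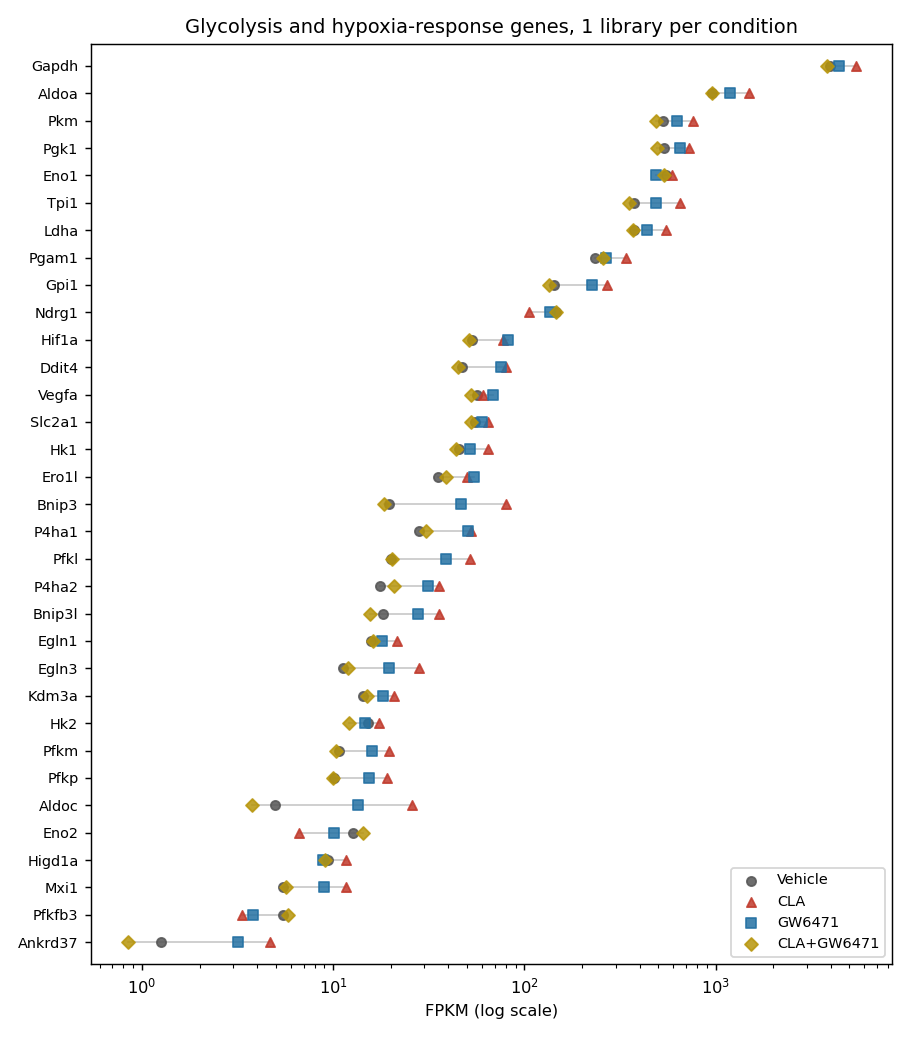
FPKM of the 33 genes on a log axis, with 1 point per library and genes ordered by their mean. CLA (triangles) lies at the right end of the row for 27 genes, and Eno2, Pfkfb3 and Ndrg1 are the rows in which it lies at the left end.

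Glucose enters through Slc2a1, which encodes the transporter GLUT1. This gene had 55.19 FPKM in Vehicle, 64.75 in CLA, 59.88 in GW6471 and 52.51 with both treatments, and no pair of libraries was 1.5-fold apart. The transporter genes Slc2a3 (GLUT3) and Slc16a3 (the lactate exporter MCT4) had at most 0.16 and 0.14 FPKM. Their estimated reads numbered 2 to 12 per library, too few for a difference in CLA against Vehicle to be detectable at this depth.

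The preparatory phase of glycolysis held most of the called genes of the pathway. All 9 of its genes lay above 0 in CLA against Vehicle, 7 were called higher, against 7.33% of all genes, and their median log2 ratio was 0.87. Hexokinases, which trap glucose as glucose 6-phosphate, were not among the 7. Hk1 had 45.71 FPKM in Vehicle, 64.08 in CLA, 51.76 in GW6471 and 43.92 with both treatments, and Hk2 ran from 12.09 to 17.25 FPKM over the libraries. Gpi1, the isomerase that makes fructose 6-phosphate, had 142.89 FPKM in Vehicle, 269.79 in CLA, 226.38 in GW6471 and 134.41 with both treatments. It was called in every comparison, with a log2 ratio of 0.92 in CLA against Vehicle (95% counting interval 0.87 to 0.96).

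Phosphofructokinase, the main control point of the pathway, is made of liver, muscle and platelet subunits. The liver subunit gene Pfkl had 20.14 FPKM in Vehicle, 51.61 in CLA, 38.80 in GW6471 and 20.33 with both treatments. Its log2 ratio of CLA to Vehicle was 1.35 (1.27 to 1.45), and that of GW6471 to Vehicle was 0.94 (0.85 to 1.04). The muscle subunit gene Pfkm had 10.66, 19.57, 15.86 and 10.38 FPKM in Vehicle, CLA, GW6471 and CLA+GW6471, in that order, and the platelet subunit gene Pfkp had 10.13, 19.16, 15.43 and 9.94. All 3 genes were high in CLA, intermediate in GW6471 and low in the other libraries. The share of Pfkl in their summed FPKM was 49.2% in Vehicle, 57.1% in CLA and 55.4% in GW6471, and with both treatments it was close to that in Vehicle.

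The PFKFB enzymes set the level of fructose 2,6-bisphosphate, the strongest activator of phosphofructokinase. Pfkfb3 had 5.46 FPKM in Vehicle, 3.34 in CLA, 3.80 in GW6471 and 5.77 with both treatments, a log2 ratio of -0.69 in CLA against Vehicle (-0.91 to -0.50). It was called lower in CLA and not in GW6471, where the log2 ratio was -0.51. The other genes of this family did not show this order. Pfkfb1 had 3.09 FPKM in Vehicle and 4.41 in CLA, and Pfkfb2 had 4.22 and 4.30. Pfkfb4 lay just under the limit of 1 FPKM, with 0.53 in Vehicle, 1.19 in CLA, 0.71 in GW6471 and 0.66 with both treatments, while Ankrd37 was the gene nearest above the limit, with a mean of 2.49.

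Aldolases cleave fructose 1,6-bisphosphate. Aldoa, the ubiquitous form, had 954.75 FPKM in Vehicle, 1500.69 in CLA, 1193.42 in GW6471 and 953.18 with both treatments, and it was called higher in CLA (log2 ratio 0.65, 0.63 to 0.67). Aldoc, known as the brain form, showed the highest ratio of the 33 genes, from 4.98 FPKM in Vehicle and 3.76 in CLA+GW6471 to 25.70 in CLA and 13.51 in GW6471. The log2 ratio of Aldoc was 2.34 in CLA against Vehicle (2.18 to 2.56), and with CLA as the base it was -2.74 in CLA+GW6471 (-3.00 to -2.56). Even so, Aldoc made up between 0.393% and 1.68% of the summed FPKM of Aldoa and Aldoc in the 4 libraries. Tpi1, triosephosphate isomerase, had 374.35 FPKM in Vehicle, 648.61 in CLA, 486.94 in GW6471 and 350.03 with both treatments.

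In the payoff phase fewer genes were called, though the difference between the phases was not tested. Of its 7 genes, 6 lay above 0 in CLA against Vehicle, 0 were called higher and 1 was called lower, near the 7.33% and 4.95% of all genes, with a median log2 ratio of 0.45. Gapdh, the most abundant of all the genes, had 3978.12 FPKM in Vehicle, 5419.27 in CLA, 4418.33 in GW6471 and 3833.34 with both treatments. Its level in CLA was 1.36 times that in Vehicle, a log2 ratio of 0.45 (0.43 to 0.46). The study used Gapdh as the internal reference of its RT-qPCR. Pkm, pyruvate kinase M, had 529.86 FPKM in Vehicle, 760.60 in CLA, 628.66 in GW6471 and 489.23 with both treatments, and was called lower in CLA+GW6471 against CLA (log2 ratio -0.64).

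Lactate dehydrogenase A, encoded by Ldha, had 376.02 FPKM in Vehicle, 550.50 in CLA, 438.21 in GW6471 and 369.40 with both treatments. Pgk1, phosphoglycerate kinase, ranged from 492.39 FPKM in CLA+GW6471 to 721.02 in CLA, and Pgam1, phosphoglycerate mutase, from 233.65 in Vehicle to 339.07 in CLA. Their log2 ratios of CLA to Vehicle were 0.43 and 0.54. Ldha, Pgk1 and Pgam1 were called in no comparison. Eno1, the main enolase, was nearly level, between 486.47 FPKM in GW6471 and 588.49 in CLA. Eno2, the neuronal enolase, ran opposite to most of the genes, as Pfkfb3 did. It had 12.68 FPKM in Vehicle, 6.62 in CLA, 10.09 in GW6471 and 14.36 with both treatments. Its log2 ratio was -0.93 in CLA against Vehicle (-1.13 to -0.75). Reads of Gapdh, Aldoa, Tpi1, Pgk1, Pgam1, Eno1, Pkm and Ldha are uncertain, because the mouse genome holds near-identical processed pseudogenes of them. Without these 8 genes the median of the list in CLA against Vehicle was 0.76, and 13 genes were called higher.

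Among the oxygen sensors, the prolyl hydroxylase gene Egln3 (PHD3) had 11.18 FPKM in Vehicle, 27.96 in CLA, 19.48 in GW6471 and 11.92 with both treatments. Its log2 ratio was 1.31 in CLA (1.18 to 1.46) and 0.80 in GW6471 (0.65 to 0.95) against Vehicle. Egln1 (PHD2), the main HIF hydroxylase, had a narrower range, 15.78 to 21.55 FPKM, and was called in no comparison. Hif1a, which encodes HIF-1α, was highest in GW6471, with 53.09 FPKM in Vehicle, 76.82 in CLA, 81.83 in GW6471 and 51.33 with both treatments. It was called higher in GW6471 (log2 ratio 0.62, 0.57 to 0.68), and in CLA it was 1.45-fold higher, under the limit.

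Next to Aldoc, the highest ratio of CLA to Vehicle was that of Bnip3. BNIP3 and its relative NIX are mitophagy receptors, which recruit autophagosomes to mitochondria. Bnip3 (Entrez 12176, mm9 chromosome 7, 146082519 to 146101202) had 19.65 FPKM in Vehicle, 79.94 in CLA, 46.56 in GW6471 and 18.42 with both treatments. The log2 ratios of Bnip3 were 2.02 in CLA (1.90 to 2.15) and 1.24 in GW6471 (1.11 to 1.38) against Vehicle. With CLA as the base, the log2 ratio of CLA+GW6471 was -2.11 (-2.25 to -1.99). Bnip3l, the gene of NIX, had 18.21 FPKM in Vehicle, 35.84 in CLA, 27.66 in GW6471 and 15.64 with both treatments. The libraries thus kept the same order in both genes, with a smaller spread in Bnip3l.

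Collagen prolyl 4-hydroxylases need their α subunits, encoded by P4ha1 and P4ha2. P4ha1 had 28.04 FPKM in Vehicle, 52.23 in CLA, 50.41 in GW6471 and 30.69 with both treatments, and P4ha2 had 17.61, 35.93, 31.28 and 20.71 in the same order. In these genes CLA and GW6471 lay close together, with log2 ratios to Vehicle of 0.90 and 0.84 for P4ha1 and of 1.02 and 0.83 for P4ha2. Ero1l, an oxidase that forms disulphide bonds in the endoplasmic reticulum, had 35.45 FPKM in Vehicle, 49.82 in CLA, 54.52 in GW6471 and 38.66 with both treatments. It was called higher in GW6471 and not in CLA.

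Of the regulators, Ddit4 (REDD1, an inhibitor of mTORC1) had 46.91 FPKM in Vehicle, 79.67 in CLA, 75.60 in GW6471 and 44.79 with both treatments. Mxi1, an antagonist of MYC, had 5.47, 11.69, 8.96 and 5.67 FPKM in the same order of libraries. Ankrd37, a small ankyrin repeat protein, had 1.25 FPKM in Vehicle, 4.69 in CLA, 3.17 in GW6471 and 0.84 with both treatments. Few reads stand behind Ankrd37, an estimated 22 in Vehicle and 82 in CLA, and its log2 ratio of 1.83 had a wide counting interval (1.22 to 2.66). All 3 genes were called in every comparison.

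The remaining hypoxia-response genes of the list with a mean of at least 1 FPKM were called in no comparison. Vegfa, the vascular growth factor, had 56.57 FPKM in Vehicle, 60.59 in CLA, 68.33 in GW6471 and 52.60 with both treatments, so that GW6471 and CLA were again the higher libraries. Ndrg1 was lowest in CLA, with 105.17 FPKM against 135.35 to 145.64 in the other libraries, a log2 ratio to Vehicle of -0.47 (-0.52 to -0.42). Kdm3a, a histone demethylase, ranged from 14.24 FPKM in Vehicle to 20.88 in CLA with GW6471 second, and Higd1a, a mitochondrial protein, from 8.86 in GW6471 to 11.59 in CLA. Adm, the gene of the vasodilator adrenomedullin, was listed at 0 in Vehicle, GW6471 and CLA+GW6471 and had 0.07 FPKM in CLA. Its mean lay under that limit, so it was not counted.

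**Figure D3:**
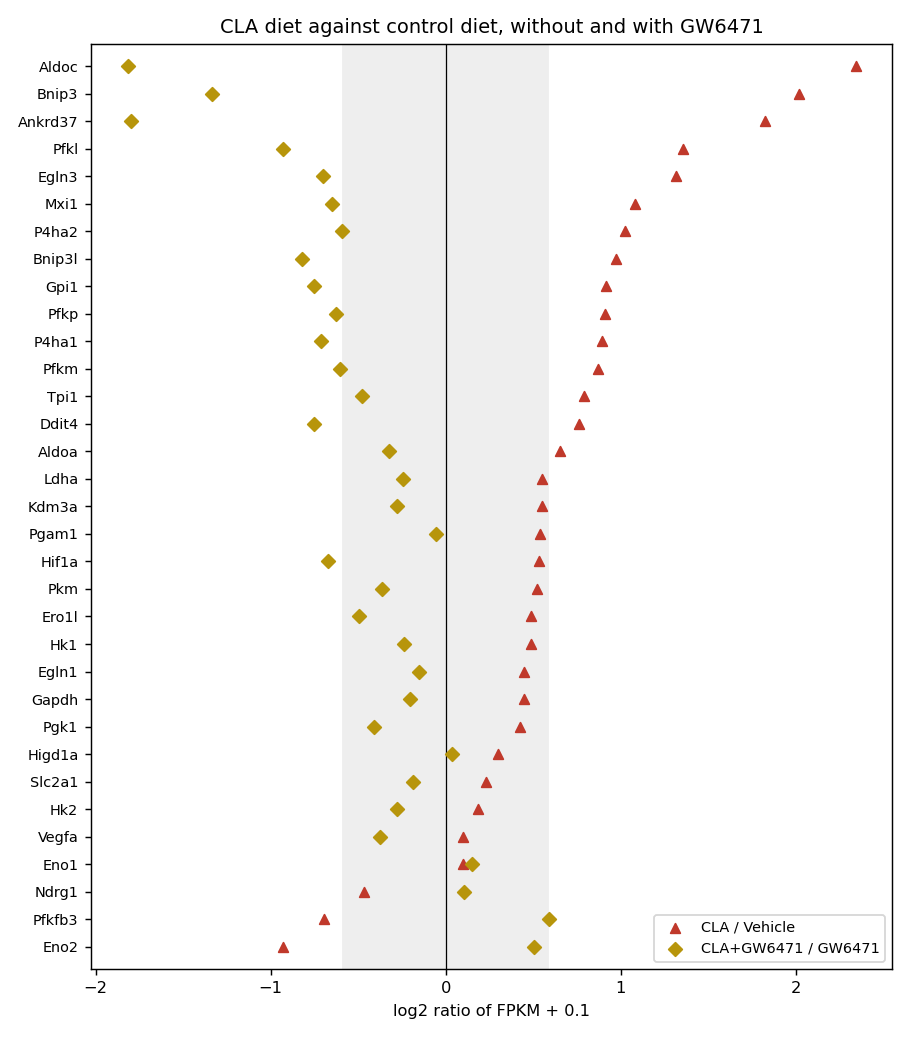
log2 ratio of FPKM + 0.1 for the 33 genes, ordered by CLA against Vehicle (triangles), with CLA+GW6471 against GW6471 (diamonds) in the same row. The grey band marks differences under 1.5-fold. These comparisons share no library, and the triangles reach 2.34 for Aldoc where the diamond stands at -1.82.

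CLA diet against control diet thus had opposite signs without and with the antagonist for most genes. In CLA against Vehicle 30 genes lay above 0, and in CLA+GW6471 against GW6471 28 lay below 0. The counting intervals of all 33 ratios of CLA to Vehicle excluded 0. So did those of 32 ratios of CLA+GW6471 to GW6471, with Higd1a as the exception at a log2 ratio of 0.033. Such intervals are narrow for genes with many reads, and that of Eno1 excluded 0 at 1.07-fold in CLA against Vehicle. The same count over all genes was not made. For 14 genes both ratios were called, in opposite directions (42.4%, against 4.41% of all genes), and for 12 of these the same held for GW6471 without and with CLA (36.4%, against 2.76%). Both reversals are read from the same libraries, so the second is not independent of the first. The difference between the comparisons could not be tested with 1 library per condition.

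The isozymes were then compared with those known for liver. Within their families, Slc2a1 made up at least 99.2% of FPKM, Pkm 97.8% to 98.0% and Ldha at least 99.98%. Slc2a2, the liver glucose transporter GLUT2, had at most 0.04 FPKM. Pklr, L-type pyruvate kinase, had 11.58 FPKM in Vehicle, 15.32 in CLA, 12.70 in GW6471 and 11.17 with both treatments, and took 1.97% to 2.23% of pyruvate kinase FPKM. Glucokinase and the gluconeogenic genes G6pc, Pck1 and Fbp1 were not analysed here.

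**Figure D4:**
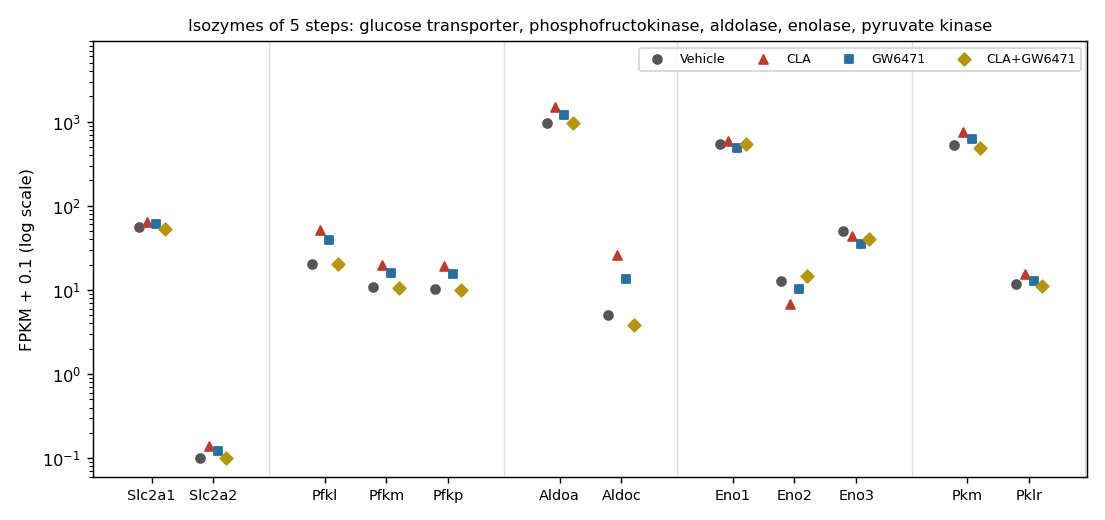
FPKM + 0.1 on a log axis for the isozymes of 5 steps, with 1 point per library. Slc2a1 and Pkm lie far above the liver forms Slc2a2 and Pklr in every library, and Aldoc shows the widest spread between libraries, from 3.76 to 25.70 FPKM.

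Among the hepatocyte markers, Apoh was listed at 0 in Vehicle and GW6471, and Ttr in GW6471. The summed FPKM of the hepatocyte markers was 1004 in Vehicle, 1863 in CLA, 1521 in GW6471 and 931.4 with both treatments, most of it Alb. This sum, carried by Alb, Trf and Fgb, was highest in CLA and second in GW6471, as were 24 of the 33 genes. Hnf4a, the only other hepatocyte marker with a mean of at least 1 FPKM, ran the other way, with 54.53 FPKM in Vehicle, 47.31 in CLA, 47.23 in GW6471 and 51.84 with both treatments. The 7 listed markers of stellate cells and fibroblasts summed to 1288, 1507, 1351 and 1149 in the same order of libraries, nearly all of it Dcn. The 5 listed macrophage markers summed to 64.59 FPKM in CLA and to 44.53 to 48.18 in the other libraries. Nearly all of it was Cd68 and Cd14, and 3 of these markers had a mean under 1 FPKM. For the 9 epithelial markers the sum was highest in Vehicle, at 1939, and lowest in GW6471, at 1652. Markers of red blood cells, endothelium and muscle summed to at most 2.47 FPKM in any library. The part of these cells in the differences was not tested.

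Other genes of the same pathways were then counted by list, beside the 7.33% of all genes higher and 4.95% lower in CLA against Vehicle. In the pentose phosphate pathway, which draws glucose 6-phosphate off to make NADPH, 2 of 8 genes were called higher and 0 lower in CLA against Vehicle, with a median log2 ratio of 0.37. The NADPH-forming enzymes G6pdx and Pgd were those 2, with 31.26 and 27.49 FPKM in Vehicle and 55.74 and 54.56 in CLA. In GW6471 they had 41.12 and 37.97 FPKM, and in CLA+GW6471 28.09 and 27.11. Of the 10 other isozymes and side-branch genes with at least 1 FPKM, 2 were called higher and 0 lower in CLA against Vehicle, with a median log2 ratio of -0.17. The genes called higher were Pgm2, a phosphoglucomutase with 17.61 FPKM in Vehicle and 38.05 in CLA, and Bpgm, which makes 2,3-bisphosphoglycerate, with 25.75 and 50.13. Adpgk, an ADP-dependent glucokinase, ran the other way, with 22.91 FPKM in Vehicle, 15.30 in CLA, 19.16 in GW6471 and 24.39 with both treatments, and was called higher in CLA+GW6471 against CLA (log2 ratio 0.67). Of the 4 genes with at least 1 FPKM among liver isozymes and gluconeogenesis, 2 were called higher, Pck2 with 27.84 FPKM in Vehicle and 46.45 in CLA, and Slc37a4, the glucose 6-phosphate transporter, with 3.75 and 6.53.

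In the other parts of the oxygen-sensing machinery few genes were called, and the difference from the genes above was not tested. Of 13 genes, 1 was called higher and 1 lower in CLA against Vehicle, near the 7.33% and 4.95% of all genes, and the median log2 ratio was -0.039. Their values are given for their place in the pathway. Epas1, which encodes HIF-2α, was the one called higher, with 5.28 FPKM in Vehicle, 12.99 in CLA, 10.70 in GW6471 and 5.83 with both treatments. Vhl, the ligase subunit that recognises hydroxylated HIF-α, was the one called lower, with 16.83, 10.94, 14.89 and 17.45 FPKM in the same order of libraries.

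Among 32 further hypoxia-responsive genes with at least 1 FPKM, 9 were called higher (28.1%, against 7.33% of all genes) and 2 lower (6.25%, against 4.95%) in CLA against Vehicle, with a median log2 ratio of 0.31. In GW6471 against Vehicle 7 were called higher (21.9%, against 3.29%) and 0 lower (against 2.1%). With CLA as the base, 3 were called higher in CLA+GW6471 (9.38%, against 6.84%) and 7 lower (21.9%, against 9.16%). With GW6471 as the base, 0 were called higher (against 2.81%) and 6 lower (18.8%, against 3.88%). The counts of 2 lower and 3 higher lie near those shares. Selenbp1, a selenium-binding protein, had 1.38 FPKM in Vehicle, 5.39 in CLA, 3.51 in GW6471 and 1.27 with both treatments, and Tfrc, the transferrin receptor, had 9.94, 20.38, 17.25 and 9.65. Both followed the order of the glycolytic genes. Angptl4, a lipase inhibitor that is induced by PPARs as well as by hypoxia, had another order, with 11.47 FPKM in Vehicle, 10.15 in CLA, 26.76 in GW6471 and 32.39 with both treatments. It was high in both libraries with GW6471.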

How the data were processed

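RNA labelled as liver was sequenced in 4 libraries, 1 per condition. The authors prepared TruSeq libraries, sequenced them on an Illumina HiSeq, and used BWA and Bowtie for mapping to mm9 and Cufflinks for quantification. The sources used here give no versions. The deposited values are FPKM with 2 decimals, and the table names no unit itself. Every column was used. Samples were assigned to conditions from their treatment labels.

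Values entered without rescaling, with 0.1 added before log2, for genes with a mean of at least 1 FPKM over the 4 libraries. A gene was called from 1.5-fold. No test was made, since each condition has 1 library. The depth was estimated from the step between low values (0.02 to 0.5 in FPKM times length in kb) among 544 genes under 1000 nt. Between 138 and 147 values per library lay in that range and were used. Counting intervals (95%, exact Clopper-Pearson, without the added 0.1) used these estimates with the longest coding transcript of GENCODE vM1, are approximate, and cover counting error only. Promoter windows came from RefSeq (GRCm38.p6) and were placed in mm9 by exact match, which was unique for all 51 windows.

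The members and the lists of other genes were chosen with earlier results of these data known. Genes called in at least 1 of the 4 comparisons are given with all 4 values, the others by range, and of each further list at most the 3 genes with the largest ratio, beside isozymes. The most and least abundant of each role also have values. Those of Hk1, Ldha and Vegfa are given outside this rule, chosen after they were seen. The alternatives were pseudocounts of 0.01 and 1, no filter, a filter at 5 FPKM, scaling (the same FPKM sum, or median of ratios), and a call at 2-fold. 1 isozyme is not reported here. Leaving out 8 genes with pseudogene copies, in CLA against Vehicle only, was added after the data were seen. The steps were tested on simulated data. Values were computed with scipy 1.17.1, pandas 2.3.3 and numpy 2.4.6 in Python 3.11.15 and drawn with matplotlib 3.10.9.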

Additional observations from a re-analysis of the deposited data

Results flagged for a closer look

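In 14 of the 33 genes CLA diet against control diet was called in opposite directions without and with GW6471 (42.4%, against 4.41% of all genes), and in 12 of these GW6471 against no GW6471 was also called in opposite directions on the control diet and on the CLA diet (36.4%, against 2.76%). The other 2 were Pfkm and Pfkfb3. Both reversals are read from the same libraries, so the second is not independent of the first. Without a limit on the fold, CLA and GW6471 both lay above the other 2 libraries in 30.2% of all genes and both below them in 31.8%. The value given is the log2 ratio of CLA+GW6471 to GW6471 minus that of CLA to Vehicle. It was -4.16 for Aldoc, -3.63 for Ankrd37 and -3.35 for Bnip3. In the other glycolytic genes it was -2.28 for Pfkl, -1.67 for Gpi1, -1.54 for Pfkp and -1.48 for Pfkm. In the other hypoxia-response genes it was -2.02 for Egln3, -1.79 for Bnip3l, -1.73 for Mxi1, -1.62 for P4ha2, -1.61 for P4ha1 and -1.52 for Ddit4. Pfkfb3 had the opposite sign, with 1.28. The difference was not tested, since each condition has 1 library, and a difference between single mice or libraries cannot be told apart from one between the conditions.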

How the results depend on the processing

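No paired analysis was possible because each condition has 1 library and the conditions share a single replicate number. Of 83 counts and medians under an alternative, 69 stayed within 1.5 times the main count or within 0.1 of the main median (log2), 14 moved and 0 changed sign. Of 528 log2 ratios of single genes under another pseudocount or scaling, 29 left their counting interval and 0 called ratios changed sign.

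With a call at 2-fold, 7 genes were higher and 0 lower in CLA against Vehicle, 3 were higher in GW6471 against Vehicle, 1 was higher and 8 lower in CLA+GW6471 against CLA, and 0 were higher and 3 lower in CLA+GW6471 against GW6471. These counts are lower by construction. With a pseudocount of 1, 1 gene was lower in CLA against Vehicle and 0 were higher in CLA+GW6471 against GW6471. With a minimum mean of 5 FPKM, which leaves out Pfkfb3, 1 gene was lower in CLA against Vehicle, 1 was higher in CLA+GW6471 against CLA and 0 were higher in CLA+GW6471 against GW6471. Scaled to the same FPKM sum, 0 were higher in CLA+GW6471 against GW6471. Without the genes with pseudogene copies the median in CLA against Vehicle was 0.76. Under the alternatives other than the 2-fold call, 13 to 17 genes were higher in CLA against Vehicle. Leaving out the genes with pseudogene copies was done for that comparison only. Under the remaining alternatives 15 to 18 genes were lower in CLA+GW6471 against CLA, where Aldoa, Tpi1 and Pkm, which have such copies, were among those called lower.

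The depth, an estimate, limits Slc2a3, Slc16a3 and Adm, and single libraries leave the spread between mice unknown.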
